A study of Rattus norvegicus with 9 samples.

Results

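Heat shock chaperones were followed in thoracic aortas from offspring of diabetic rat mothers (DMO) and offspring of control mothers (CMO). The genes described are Hspa1a, Dnajb1, Hsph1, Hsp90aa1, Cryab, Hspb1, Hspa8 and Serpinh1, chosen by name as inducible and constitutive heat shock chaperones. Earlier results of these data were known at that choice, so shares set beside those of all features below are a description. Of these 8 genes, 7 were measured, by 9 of the 22575 features of the array, namely 3 for Dnajb1 and 1 for each other gene, and no feature was assigned to Hspb1. Each two-colour Agilent array compared RNA of 1 DMO animal with that of 1 CMO animal, one on Cy3 and the other on Cy5, so each value is a log ratio between the animals of a pair. The 9 arrays came from 5 pairs, called here by the number of the DMO animal: 193 (against CMO 189), 194 (against 190), 197 (against 191), 199 (against 192) and 220 (against 216). Pairs 193, 197, 199 and 220 were measured in both dye orientations and pair 194 on 1 array with the DMO animal on Cy3. How diabetes was induced, and the strain, sex, age and litter of the animals, stand in none of the sources read here, and a shared litter would make p-values too small.

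The ratios carry limits that hold for every value below. The base of the logarithm is not stated, so no folds are given. Whether a positive value stands for the DMO or the CMO animal is not settled either, and signs are those of the deposited values. Both dye orientations were assumed to run the same way as deposited. Gene names rest on a renumbering of the features that was chosen after the values were seen, under which 52 of 54 same-gene feature pairs with both members over 1 in size had the same sign in the animal pair where the first was largest, against 17 of 28 with the row numbers as deposited. Swapped arrays of a pair correlated at r = 0.18 (pair 193), 0.67 (197), -0.19 (199) and 0.068 (220) across 19478 genes and unnamed features, which are not independent replicates. A ratio shows no level, so the presence of smooth muscle markers could not be checked. In whole tissue, fewer cells of a type and less RNA per cell cannot be told apart.

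Heat shock proteins are chaperones that hold, refold or hand over misfolded proteins. Under heat, oxidation or other protein damage, the transcription factor HSF1 forms trimers that bind heat shock elements, which are inverted repeats of GAA and TTC, and switches on the inducible chaperones within minutes to hours. Hspa1a encodes the inducible cytosolic HSP70, Dnajb1 an HSP40 that delivers clients to it, and Hsph1 an HSP110 that exchanges its nucleotide. Hsp90aa1 encodes the inducible cytosolic HSP90, and Cryab the small heat shock protein alpha-B-crystallin, abundant in muscle. Hspa8 encodes the constitutive HSP70, and Serpinh1 the procollagen chaperone HSP47 of the endoplasmic reticulum.

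Promoter sequences are shown because heat shock elements are the textbook feature of this gene set. RefSeq promoters of assembly GRCr8 were found for 5 of the 7 measured genes, not for Hsp90aa1 and Cryab, and the 250 bases before the annotated start were searched on both strands. The short elements searched were GAANNTTC and TTCNNGAA, each its own reverse complement, and the long ones were TTCNNGAA followed by NNTTC and its reverse complement, GAANNTTC followed by NNGAA, which contain both short ones. Capitals mark the fixed bases of the matches, and the sequences run 5′ to 3′ toward the start. The Dnajb1 window lies at chr19:41431142-41431391, minus strand, that of Hsph1 at chr12:10427118-10427367, plus strand, that of Hspa8 at chr8:50080264-50080513, plus strand and that of Serpinh1 at chr1:163062977-163063226, minus strand.
Dnajb1: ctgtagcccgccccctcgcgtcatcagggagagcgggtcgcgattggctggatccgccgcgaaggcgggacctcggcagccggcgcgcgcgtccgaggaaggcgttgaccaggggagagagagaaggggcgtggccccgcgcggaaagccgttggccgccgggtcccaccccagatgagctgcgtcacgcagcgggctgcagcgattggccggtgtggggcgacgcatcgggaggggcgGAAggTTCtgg
Hsph1: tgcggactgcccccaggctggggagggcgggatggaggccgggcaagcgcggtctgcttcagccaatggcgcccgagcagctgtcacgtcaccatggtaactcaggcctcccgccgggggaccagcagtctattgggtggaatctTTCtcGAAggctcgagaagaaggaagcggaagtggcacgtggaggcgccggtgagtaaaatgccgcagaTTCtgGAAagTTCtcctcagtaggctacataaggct
Hspa8: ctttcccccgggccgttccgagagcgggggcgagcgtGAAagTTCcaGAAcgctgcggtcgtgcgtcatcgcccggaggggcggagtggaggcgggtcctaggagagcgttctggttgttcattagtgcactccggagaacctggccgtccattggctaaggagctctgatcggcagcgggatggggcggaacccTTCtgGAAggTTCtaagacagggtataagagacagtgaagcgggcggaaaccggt
Serpinh1: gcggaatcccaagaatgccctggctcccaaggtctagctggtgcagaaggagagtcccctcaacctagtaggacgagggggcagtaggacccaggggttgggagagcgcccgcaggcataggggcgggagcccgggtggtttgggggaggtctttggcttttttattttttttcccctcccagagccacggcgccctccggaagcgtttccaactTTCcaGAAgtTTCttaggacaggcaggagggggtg

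The long element was present in Hsph1 from -36 (with a further short one from -105), in Serpinh1 from -35 and in Hspa8 from -213 and from -55, counted from the annotated start with the last base before it as -1. It occurred in 0.663% of the 33469 promoters of the table. Dnajb1 held the short element only, from -11, and 13.5% of all promoters held a short element. No match of these letters lay in the window of Hspa1a, at chr20:3859506-3859755, plus strand, whose sequence is not printed here. Bases outside that window were not searched, and whether transcription in the aorta begins at the annotated start was not tested. The gene therefore cannot be said to lack heat shock elements. A match is a description of letters and not a binding site. The long element was thus present in Hsph1, which differed widely between animal pairs as given below, and also in Hspa8 and Serpinh1, which did not pass that test.

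Hspa1a differed most between animal pairs of the 7 genes. With the array that had the DMO animal on Cy3 before that on Cy5, pair 199 gave 3.23 and 3.16, pair 220 3.04 and 2.93, pair 193 -0.52 and -0.85, pair 197 -0.84 and -1.37, and pair 194 -2.03 on its single array. The positive log ratios of pairs 199 and 220 thus stood clear of the negative ones of the other pairs on every array. Among 19478 genes and unnamed features, Hspa1a was the 7th highest in pair 199, the 2nd highest in pair 220 and the 11th lowest in pair 194.

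Dnajb1 had a smaller spread than Hspa1a. As the mean of its 3 features, pair 199 gave 1.33 and 1.68, pair 220 1.51 and 1.37, pair 193 -0.13 and -0.090, pair 197 0.00058 and 0.063, and pair 194 -1.498 on its single array. Pairs 193 and 197 lay near 0, between the others. The features differed in size: over pairs 193, 194, 197, 199 and 220 the first read -0.28, -2.35, -0.33, 2.40 and 1.96, and the second 0.13, -0.65, -0.18, 0.65 and 0.64. The third read -0.18, -1.49, 0.61, 1.47 and 1.71. All 3 were positive in pairs 199 and 220 and negative in pair 194, while their signs differed in pairs 193 and 197. Tested alone, the second did not pass the test of differences between pairs described below (limma adjusted p = 0.118), and both others did.

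For Hsph1, pair 199 gave 1.91 and 0.98, pair 220 1.44 and 1.75, pair 193 -0.79 and -0.88, pair 197 -1.31 and -0.88, and pair 194 -1.62 on its single array. Its gap between the arrays of pair 199, at 0.92, was the largest swap gap of the 7 genes, yet no array of pairs 199 and 220 overlapped one of the other pairs. For Hsp90aa1, pair 199 gave 1.42 and 1.03, pair 220 1.79 and 1.204, pair 193 -0.18 and -0.42, pair 197 0.030 and -0.38, and pair 194 -1.11 on its single array. Here too pairs 199 and 220 were the highest and pair 194 the lowest. For Cryab, pair 199 gave 0.84 and 0.74, pair 220 1.01 and 1.05, pair 193 -0.28 and -0.13, pair 197 -0.90 and -0.48, and pair 194 -0.32 on its single array. Its lowest pair was 197 rather than 194.

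**Figure D1:**
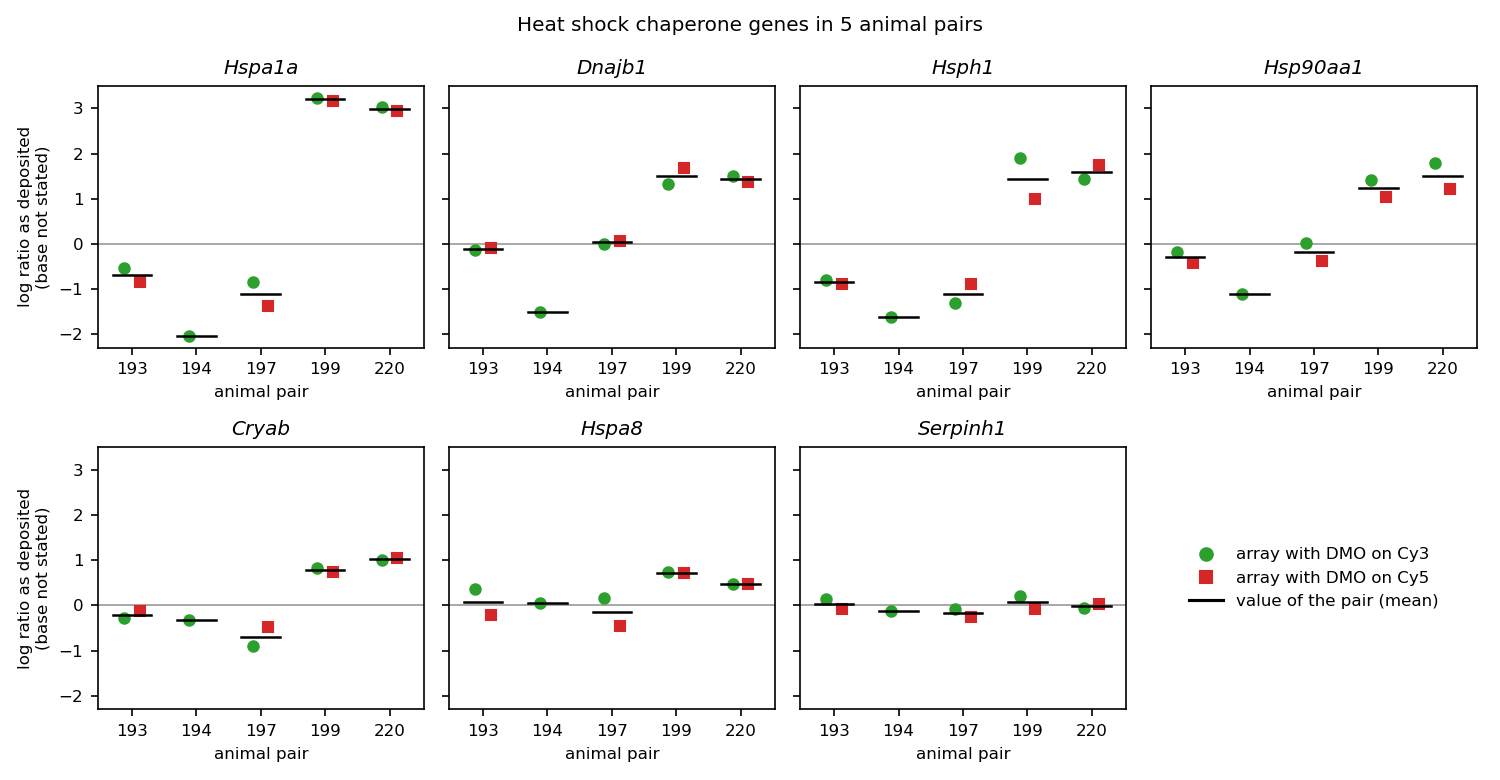
Log ratio as deposited (vertical axis, base not stated) of 7 heat shock chaperone genes in each of 5 animal pairs (horizontal axis). Circles are arrays with the DMO animal on Cy3, squares arrays with it on Cy5 and bars the value of the pair. In the first 6 panels pairs 199 and 220 lie above the other pairs, while Serpinh1 stays between -0.26 and 0.22.

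The constitutive Hspa8 varied less: pair 199 gave 0.73 and 0.72, pair 220 0.48 and 0.47, pair 193 0.36 and -0.22, pair 197 0.17 and -0.46, and pair 194 0.050 on its single array. Pairs 199 and 220 were again the highest, but the arrays of pairs 193 and 197 lay on both sides of 0. For Serpinh1, pair 199 gave 0.22 and -0.087, pair 220 -0.063 and 0.037, pair 193 0.14 and -0.081, pair 197 -0.070 and -0.26, and pair 194 -0.12 on its single array. No pair stood apart from the others.

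Whether the animal pairs differed by more than the swapped arrays of a pair was tested with limma's moderated F over the 9 arrays with a dye term. The test speaks of the RNA of these animals and not of maternal diabetes, because its error is that between arrays of the same extracts. Hspa1a ranked 1st of 19478 by F (F = 336, limma adjusted p = 0.00459). Hsp90aa1 (adjusted p = 0.00848), Dnajb1 (0.00978), Cryab (0.0227) and Hsph1 (0.0237) also passed in limma at 0.05, while Hspa8 (0.243) and Serpinh1 (0.751) did not. These are 5 of 7 genes, against 4.9% of all 19478 features, of which 9653 carry a single gene symbol. The 7 genes were chosen with earlier results of these data known, so this is a description and not a test of the set. Without pair 193 or without pair 197, 0 of 19478 features passed, and the adjusted p of Hspa1a was 0.0601 and 0.0906 with F at 278 and 348. Without pair 220, 3 of the 7 genes and 200 features passed. Without pair 199 it was 5 genes and 2105 features, and without pair 194 it was 5 genes and 896 features. Without moderation of the variance none of the 7 passed (Hspa1a at adjusted p = 0.0674) and 14 features did. If the Cy5 arrays were instead given the opposite sign, none of the 7 and 0 features passed (Hspa1a at F = 0.44).

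The range of the 5 pair values was 5.22 for Hspa1a, 3.22 for Hsph1, 3.01 for Dnajb1, 2.61 for Hsp90aa1, 1.72 for Cryab, 0.87 for Hspa8 and 0.23 for Serpinh1. The largest gap between swapped arrays of a pair was 0.53, 0.92, 0.35, 0.59, 0.43, 0.63 and 0.30 in the same order of genes. The range exceeded every such gap in 6 of the 7 genes, all but Serpinh1, against 47.5% of all features. Both arrays of a pair had the same sign in 22 of the 28 combinations of gene and swapped pair. By pair this was 6 of 7 genes for pair 199 (44.1% of all features), 6 for pair 220 (46.5%), 5 for pair 193 (43.9%) and 5 for pair 197 (68.4%). The signs matched in all 4 swapped pairs for Hspa1a, Dnajb1, Hsph1 and Cryab, or 4 of 7 genes, against 9.77% of all features. These shares, too, describe genes chosen with earlier results of these data known.

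**Figure D2:**
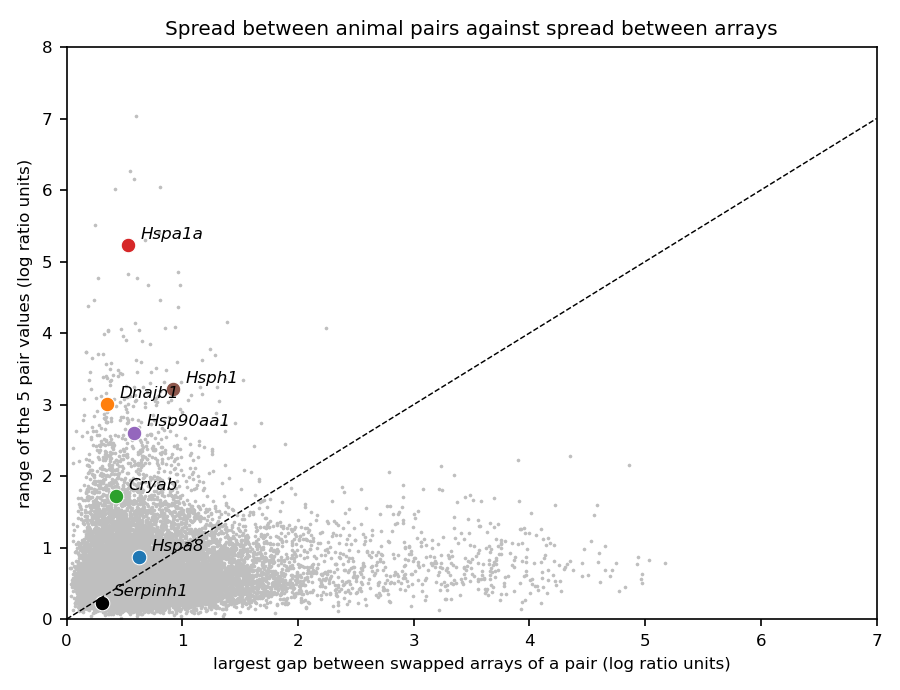
Range of the 5 pair values (vertical axis, log ratio units) against the largest gap between the swapped arrays of a pair (horizontal axis, same units) for 19478 genes and unnamed features in grey and the 7 chaperone genes in colour. The dashed line marks equal values. Hspa1a lies at a range of 5.22 and a gap of 0.53, and Serpinh1 lies below the line.

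Each pair was also set against 0 with the same array error, which again compares the animals of 1 pair only. In pair 199, 4 of the 7 genes were called positive (1.62% of all features): Hspa1a at 3.20 ± 0.12 (limma estimate ± SE), Dnajb1 at 1.51 ± 0.12, Hsp90aa1 at 1.23 ± 0.11 and Cryab at 0.79 ± 0.12. In pair 220, 3 were called positive (0.0924% of all features): Hspa1a at 2.99 ± 0.12, Dnajb1 at 1.44 ± 0.12 and Hsp90aa1 at 1.497 ± 0.107. Hsph1 missed the threshold in both, at 1.45 ± 0.24 (limma adjusted p = 0.0585) and 1.60 ± 0.24 (0.123).

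On the negative side, pair 194 had 1 call (0.0821% of all features), Hspa1a at -2.16 ± 0.18 after the fitted dye effect was taken off its single array. Pair 197 had 2, Hspa1a at -1.10 ± 0.12 and Cryab at -0.69 ± 0.12, where 6.9% of all features were called negative. In pair 193 none of the 7 was called, with 0.133% of all features called positive and 0.288% negative. No gene of the 7 was called on the other side, where 0.365% of all features were negative for pair 199, 0.0616% negative for pair 220, 0.267% positive for pair 194 and 3.01% positive for pair 197. These counts turn on single pairs. Shares of all features were not counted in the runs that follow, so the shifts cannot be read as particular to these genes. Without pair 193 the count was 1 for pair 199, 0 for pair 220, 0 for pair 194 and 1 for pair 197. Without pair 197 it was 1 for pair 199, 0 for pair 220 and 0 for pair 194. Without pair 199 it was 5 for pair 220, 4 for pair 194, 3 for pair 197 and 1 for pair 193, and without pair 220 it was 3 for pair 199, 0 for pair 194 and 1 for pair 197.

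**Figure D3:**
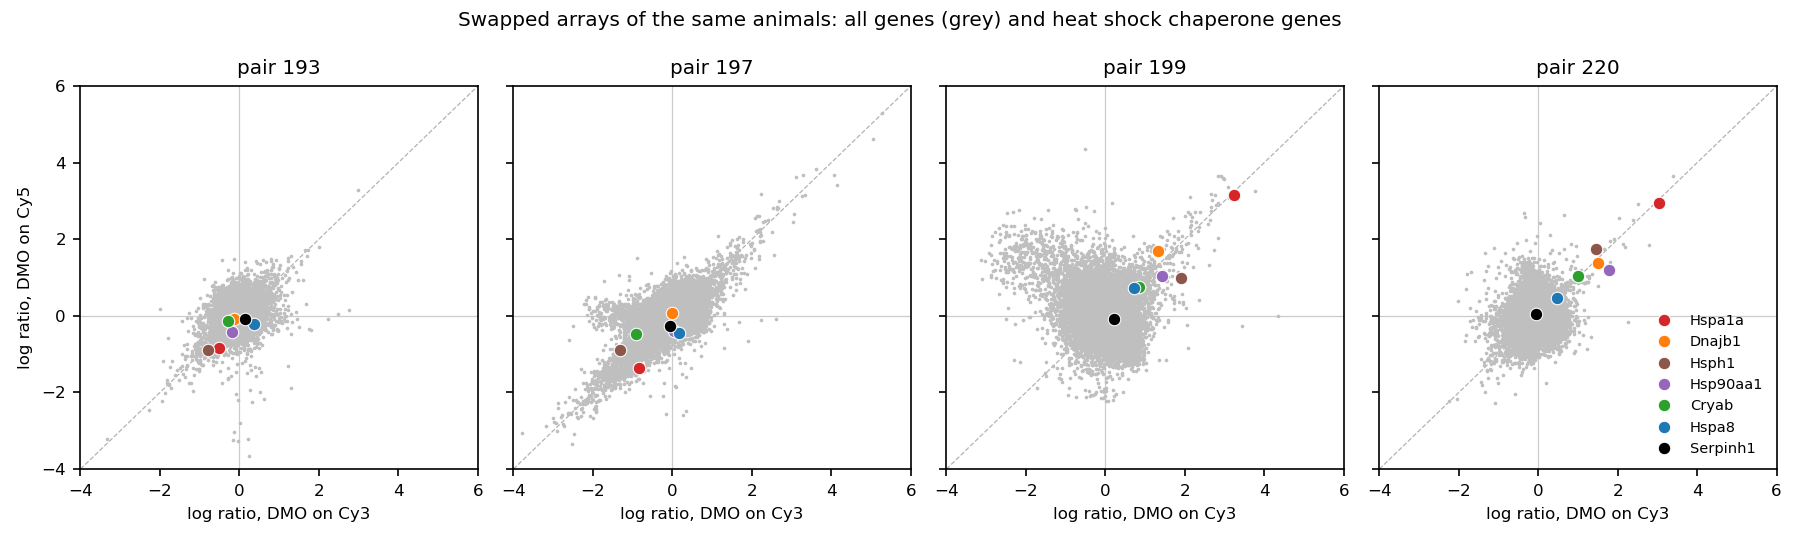
Log ratio on the array with the DMO animal on Cy5 (vertical axis) against that with the DMO animal on Cy3 (horizontal axis) in the 4 swapped pairs, with all genes in grey and the 7 chaperone genes in colour. The dashed line marks equal values. In pairs 199 and 220 Hspa1a lies close to that line, at 3.23 and 3.16 and at 3.04 and 2.93.

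The order of the pairs was read from the 10 single contrasts between them, chosen after the values were seen. For Hspa1a 6 contrasts passed in limma, those that set pair 199 or 220 against pair 193, 194 or 197. The contrast of pair 199 against pair 194 was 5.35 ± 0.22 (SE, limma adjusted p = 0.00392). Pairs 199 and 220 did not pass against each other, nor did pairs 193, 194 and 197 among themselves. Of all features, 1.93%, 0.513% and 3.52% passed for pair 199 against pairs 193, 194 and 197, and 0.139%, 0.277% and 3.23% for pair 220 against the same pairs. For the other contrasts the shares were 0.796% (220 against 199), 0.529% (194 against 193), 5.04% (197 against 193) and 5.05% (197 against 194). Hsp90aa1 passed in 7 contrasts, Dnajb1 in 6, Hsph1 in 3, Cryab in 2, and Hspa8 and Serpinh1 in none of 10. Hsp90aa1 and Dnajb1 also passed for pair 197 against pair 194, at 1.14 ± 0.19 (limma adjusted p = 0.0362) and 1.49 ± 0.22 (0.024).

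The comparison of DMO with CMO animals over the 5 pairs asked whether maternal diabetes left a common mark on these genes. None of the 7 passed in limma. Hspa1a averaged 0.47 ± 2.44 (mean ± SD, n = 5 pairs, limma adjusted p = 0.963), Dnajb1 0.27 ± 1.25 (0.957), Hsph1 -0.10 ± 1.51 (0.991) and Hsp90aa1 0.23 ± 1.10 (0.959). Cryab averaged 0.12 ± 0.75 (limma adjusted p = 0.97), Hspa8 0.23 ± 0.35 (0.926) and Serpinh1 -0.041 ± 0.099 (0.967). No feature of 19478 passed (0%), and 4.77% reached an unadjusted p under 0.05. The spread between pairs exceeded the mean in all 7 genes. The exact two-sided sign-flip permutation test gave unadjusted p from 0.312 for Hspa8 to 0.875 for Hsph1, where the smallest that 5 pairs allow is 0.0625.

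The pairs did not share a sign. Hspa1a, Hsph1, Hsp90aa1 and Cryab were positive in pairs 199 and 220 and negative in pairs 193, 194 and 197, a pattern of 1.56% of all features. This pattern was read from the values of these genes before it was counted, so the share is a description. Hspa8 was positive in 4 of 5 pairs, all but 197. None of the 7 had the same sign in all 5 pairs, against 6.16% of all features. Leaving out 1 pair moved the mean of Hspa1a between -0.21 (without pair 199) and 1.10 (without pair 194), and that of Hsph1 between -0.53 (without pair 220) and 0.28 (without pair 194). Serpinh1 stayed between -0.068 and -0.0100. The dye effect of none of the 7 genes passed (0% of all features), with the largest at 0.41 ± 0.11 for Hsp90aa1 (SE, limma adjusted p = 0.152).

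Genes nearest to Hspa1a were sought among all named genes by the root mean square difference over the 5 pair values. They were Bag3 (0.87), a co-chaperone that links HSP70 to autophagy, Hsph1 (1.02), Dnaja1 (1.04), an HSP40 of the cytosol, the stress-responsive transcription factor gene Atf3 (1.12) and Arid5a (1.16), whose protein binds mRNA. For Bag3, pair 199 gave 1.55 and 1.99, pair 220 1.81 and 1.95, pair 193 -0.67 and -0.49, pair 197 -1.59 and -1.63, and pair 194 -1.56 on its single array. Its swapped arrays had the same sign throughout. For Dnaja1, pair 199 gave 1.05 and 1.73, pair 220 2.19 and 1.79, pair 193 -0.61 and -0.61, pair 197 -0.82 and -1.01, and pair 194 -0.97 on its single array. Both genes were picked on these same pair values, so the values are a description.

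Nearest to Dnajb1 were Hsp90aa1 (0.25), the zinc finger gene Klf6 (0.45), Ptgs2 (0.54), which encodes the inducible cyclooxygenase, Dnaja1 (0.59) and Hsph1 (0.61). Klf6, Ptgs2 and Atf3 are on the list of immediate early genes. A small distance says only that the values lie close in these 5 pairs.

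**Figure D4:**
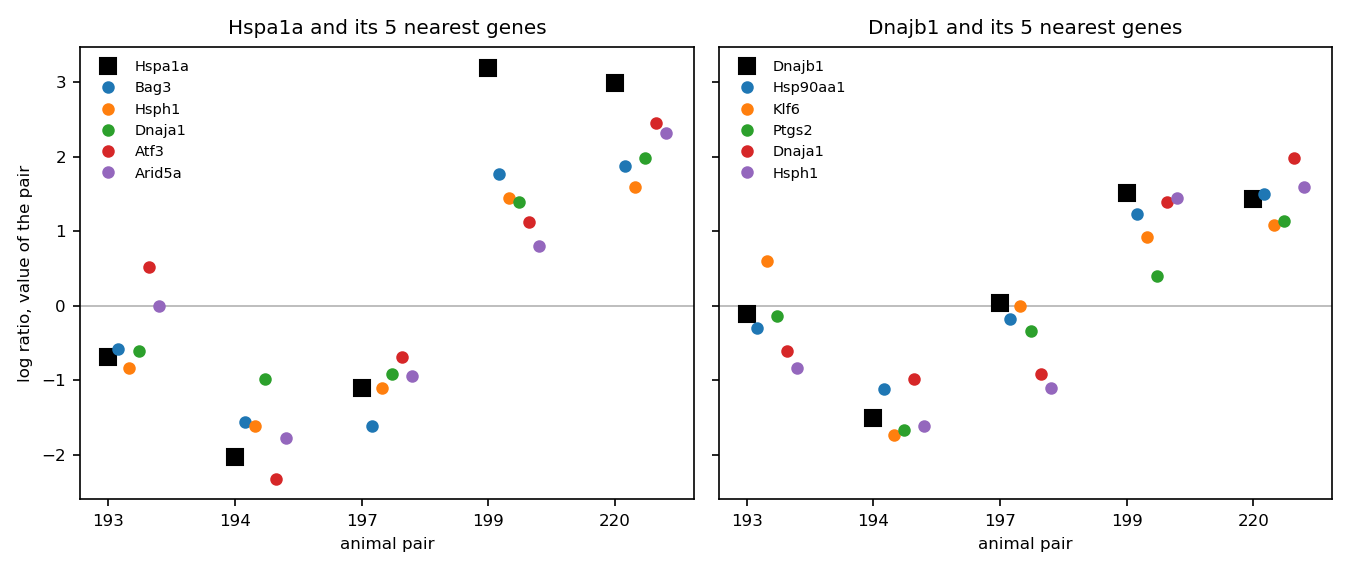
Pair values (vertical axis, log ratio) of Hspa1a (left) and Dnajb1 (right), as squares, and of the 5 named genes nearest to each, as circles, in the 5 animal pairs (horizontal axis). Bag3, Hsph1 and Dnaja1 are positive in pairs 199 and 220 and negative in the others.

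Of 113 measured genes on 11 lists of other chaperones, folding and stress, 16 passed the test of differences between pairs, or 14.2%. The share of all features, unnamed ones included, was 4.9%. All lists were drawn up with earlier results of these data known, so their shares are a description. No gene of these lists passed the comparison of DMO with CMO animals. The median over all features was -0.041, 0.016 and -0.033 for pairs 199, 220 and 194. In the J-domain list, whose proteins stimulate HSP70, 2 of 23 genes passed, Dnaja1 and Dnajc15, and the list median was 0.14, -0.024 and 0.15 for the same 3 pairs. Dnajc15, of mitochondria, read 1.46 in pair 199 but -0.14 in pair 220. Dnaja2 and Dnaja3 did not pass and read 0.35 and -0.20 in pair 199.

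Among HSP70 co-factors 2 of 9 genes passed, Bag3 and the mitochondrial exchange factor Grpel1, which read 1.31 in pair 199 but -0.12 in pair 220. The list median was 0.15 and -0.019 there. Bag2 and Bag5 did not pass, at 0.058 and -0.030 in pair 220.

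Of the other HSP70 family 3 of 10 genes passed. Hspa9, the mitochondrial HSP70, was positive in pairs 199 (0.72), 220 (0.58) and 194 (0.29). Hspa5, the HSP70 of the endoplasmic reticulum, read 0.91 in pair 199, but -0.15 in pair 220 and 0.70 in pair 194, another order of pairs than that of Hspa1a. Hspa4, an HSP110 relative, read -1.52 in pair 197 and between -0.32 and 0.28 elsewhere. Hspa12b did not pass and ranged between -0.46 and 0.16. The list median ranged between -0.12 and 0.17 over the 5 pairs. Hspa1b, a near-identical copy of Hspa1a, was not among the measured genes, and the Hspa1a probe may also read its mRNA.

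In the list of the HSP90 family and its co-chaperones 2 of 13 genes passed. The constitutive Hsp90ab1 read 1.21 in pair 199 but 0.27 in pair 220, and Cacybp, a binding partner of ubiquitin ligase subunits, 0.78 and 0.98. Hsp90b1 of the endoplasmic reticulum did not pass, at 0.67 in pair 199 and 0.93 in pair 194, where Hspa1a was at -2.03. The HSP70-HSP90 adaptor gene Stip1 did not pass either, at 0.63 and 0.55. The list median was 0.24, 0.14 and 0.15 for pairs 199, 220 and 194.

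None of 8 other small heat shock genes passed, and their median ranged between -0.0023 and 0.18. Hspb2, which lies head to head with Cryab in mammals, read 0.13, -0.52, 0.78 and -1.59 for pairs 199, 220, 194 and 197, opposite in sign to Cryab in pairs 220 and 194. Hspb6 read 0.12 and 0.16 for pairs 199 and 220.

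None of 4 genes of HSF control passed either. Hsf1 read -0.014, 0.023 and 0.13 for pairs 199, 220 and 194, the pairs where Hspa1a was largest in size. Hsf2 read -0.41, -0.0070 and -0.69 there. These are ratios of mRNA, and the trimer formation of HSF1 was not measured.

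The mitochondrial chaperone list had 4 of 8 genes passing, namely Hspd1, Hspe1, Grpel1 and Hspa9. Hspa9 was high in pairs 199 and 220, as given above, and read -0.45 in pair 193 and -0.49 in pair 197. Hspd1, the HSP60 of mitochondria, read 1.60 in pair 197 and 1.82 in pair 199, but 0.42 in pair 220. Its partner Hspe1 read 0.77, 0.62 and 0.16 there. Adipocyte markers, 10 of 12 listed genes measured, had medians of 2.73, 2.31 and -0.00053 for these 3 pairs, and their part in the values of Hspd1 and Hspe1 was not tested. Of the 10 markers, 9 were called positive in pair 197 (3.01% of all features) and 9 in pair 199 (1.62%). The remaining one, Lep, was at 0.081 and -0.10. For the same 3 pairs Hspa1a was at -1.10, 3.20 and 2.99, and the part of adipocyte content in its values was not tested either.

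Of the cytosolic chaperonin and prefoldin 1 of 7 genes passed, Tcp1, at -1.48 in pair 197 and between -0.22 and 0.36 elsewhere. Cct7 was positive in all pairs at 0.34 ± 0.10 (mean ± SD, n = 5 pairs, limma adjusted p = 0.926) and did not pass. Of the endoplasmic reticulum and unfolded protein response list 2 of 17 passed, Hspa5 and Atf4. Its median was 0.23, -0.017 and 0.21 for pairs 199, 220 and 194.

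Serpinh1 was read beside collagen genes and collagen-modifying enzymes. Of 13 measured genes 1 passed, Col1a2, at -1.09 in pair 193, -0.62 in pair 220 and between -0.14 and 0.15 elsewhere. Serpinh1 was at 0.030 in pair 193 and -0.013 in pair 220. The collagen chaperone gene Fkbp10 and the proline hydroxylase gene P3h1 did not pass, at -0.96 and -0.56 in pair 197. The list median ranged between -0.13 and 0.15.

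Of 11 measured stress genes outside the heat shock families 2 passed. The metallothionein gene Mt2A read 1.63 in pair 199 but -0.26 in pair 220, and the growth arrest gene Gadd45g 0.87 and 0.35. Hmox1, which encodes heme oxygenase 1 and responds to oxidative stress, did not pass, at -0.068, 0.22 and -0.30 for pairs 199, 220 and 194. The list median was 0.14, 0.11 and -0.021 there.

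**Figure D5:**
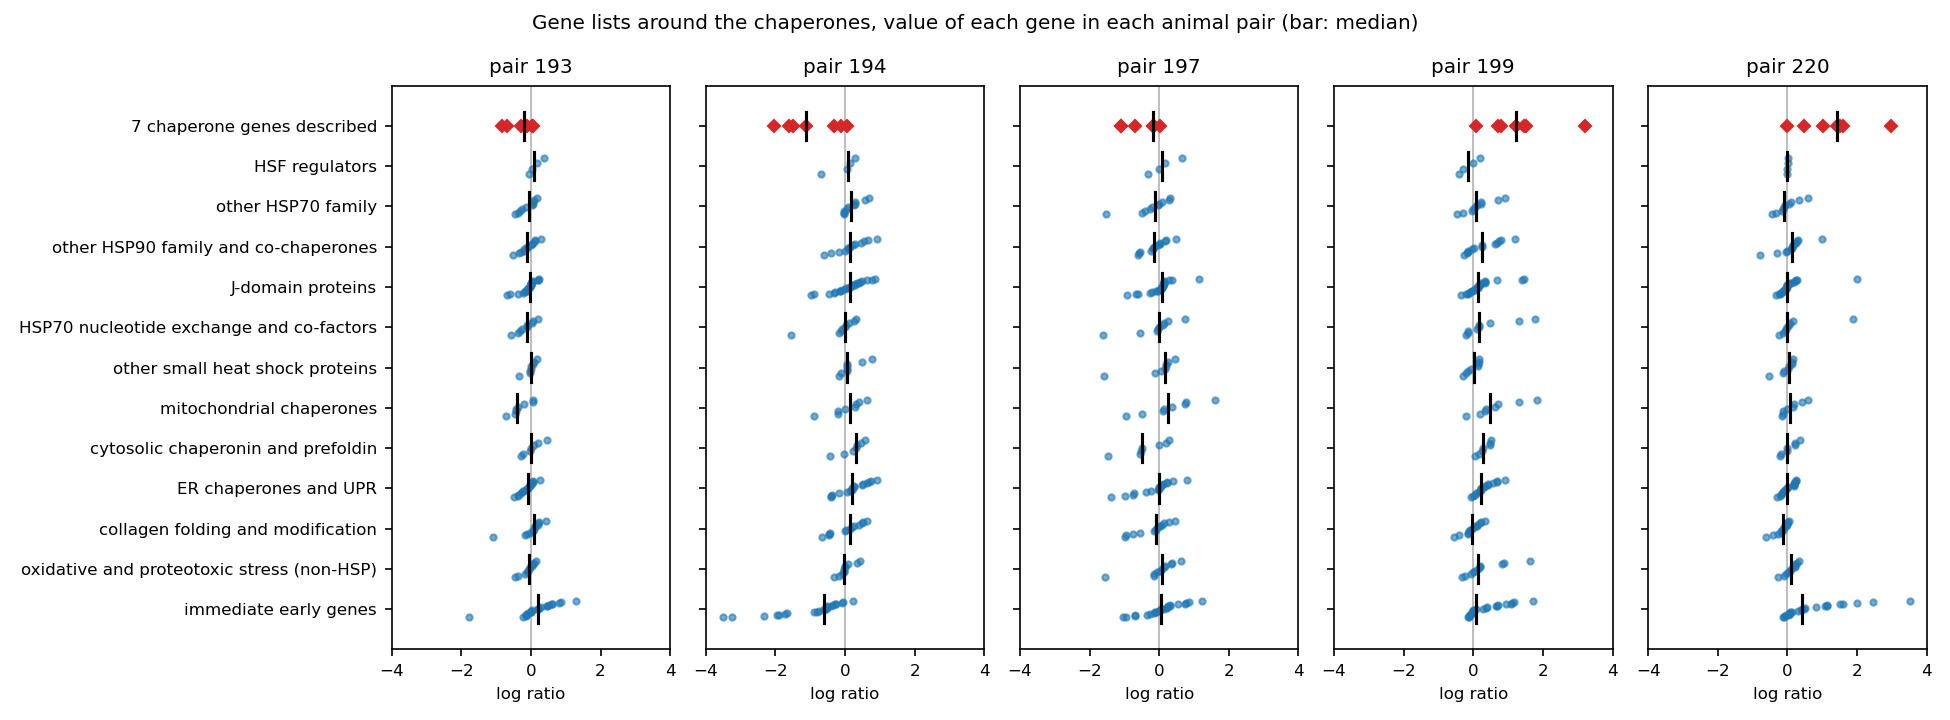
Log ratio (horizontal axes) of each gene of 12 lists and of the 7 chaperone genes (top row, diamonds) in each of the 5 animal pairs (panels), with vertical bars at the medians. ER stands for endoplasmic reticulum and UPR for unfolded protein response. The top row has medians of 1.23 and 1.44 in pairs 199 and 220 and -1.11 in pair 194, and most other lists stay near 0.

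Immediate early genes, which are induced within minutes of a stimulus, were read beside the chaperones. Of 23 measured genes 10 passed the test of differences between pairs, or 43.5%, against 4.9% of all features. Of these 23, 22 were negative in pair 194 with a median of -0.59, and 19 were positive in pair 220 with a median of 0.41. The median over all features was -0.033 and 0.016 in these pairs, and their shares by sign were not counted. The list median was 0.19 in pair 193, 0.050 in pair 197 and 0.076 in pair 199. Atf3 read 2.45, 1.12 and -2.32 for pairs 220, 199 and 194, and the orphan receptor gene Nr4a3 3.52, 1.71 and -0.89. Fos read 2.003, 1.08 and -3.50 there, but also 1.31 in pair 193 and 1.23 in pair 197, where Hspa1a was at -0.69 and -1.10. The matricellular gene Ccn1 read 1.14, 0.65 and -3.25 for pairs 220, 199 and 194, and 0.82 and -0.96 for pairs 193 and 197. Whether these genes share a source of variation with the chaperones was not tested.

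Cell type markers were read in each pair. The smooth muscle median over 9 genes was -0.75 in pair 193 and -0.90 in pair 197, and between -0.018 and 0.19 elsewhere. Endothelial medians (8 genes) ranged between -0.10 and 0.42, those of skeletal and cardiac muscle (7 genes) between -0.19 and 0.094, of fibroblasts (7 genes) between -0.45 and 0.39, and of leukocytes (10 genes) between -0.20 and 0.094. The median of Schwann cell and nerve markers (6 genes) was 0.79 in pair 194 and between -0.024 and 0.10 elsewhere. All 6 were positive in pair 194, from Cdh19 at 0.073 to Pmp22 at 3.77 and Scn7a at 5.29. In pair 197 Ckm of skeletal and cardiac muscle was at -2.21, while 5 of its 7 list genes were positive. The median of 2 erythrocyte genes ranged between -0.13 and 0.21. For adipocyte markers (10 genes) it was -0.13 in pair 193 and 0.19 in pair 194. In pair 194, 7 of these 10 were positive and 3 negative, with Cfd at 1.06, Cidea at -0.98 and Ucp1 at -2.19. There 1 of the 10 was called negative (0.0821% of all features) and 0 positive (0.267%). In pair 220 the 8 marker medians, adipocytes included, lay between -0.018 and 0.094, but single markers went both ways, with Lmod1 of smooth muscle at -1.68, Lyz2 of leukocytes at -1.29, Lpl of adipocytes at -0.72 and Cidea of adipocytes at 0.21. Of the 10 leukocyte markers 1 was called negative there (0.0616% of all features). The part of cell content in the values of the chaperones was not tested.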

How the data were processed

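Aortic RNA of 5 DMO and 5 CMO animals was measured on 9 two-colour arrays. Per the labels' protocols, RNA was extracted with Trizol and labelled as Agilent cRNA. The authors deposited 1 log ratio per feature and array. Software, background correction, base and direction were not given in the sources used here. The deposited values were read as log2, and the mean of every array was 0. No signals or flags were used, so dim features and control spots stayed, and precision is limited by the number of arrays. The design names 10 samples, and the remaining one is not analysed here.

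GEO's platform annotation gave 1 symbol to 12750 features, several to 5 and none to 9820. Features with the same single symbol were averaged, leaving 19478 rows, and arrays of a pair were averaged for the group comparison. The animal pairs come from shared RNA extracts in the labels, and swapped arrays count once; the consensus correlation of the arrays of a pair was 0.31. Tests used limma 3.58.1 in R 4.3.3 with Benjamini-Hochberg adjustment over all rows at 0.05. The array fit had 3 residual degrees of freedom. The fits across features were tested on simulated data.

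The genes and lists were chosen with earlier results of these data known. Up to 4 genes per list were named by the largest root mean square of the pair values, besides the 7 chaperones and the genes nearest to Hspa1a and Dnajb1. Centring, scaling, signs, dye orientation, pairs, probes and the dye term were varied.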

Additional observations from a re-analysis of the deposited data

Results flagged for a closer look

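Of 87 sets of values screened for a sample far from the others, 3 were flagged, and chance flags about 1 set in 20. Fos was far lower in pair 194, at -3.50, than in the other 4 pairs. Atf4 was far lower in pair 197, at -1.39. The median of Schwann cell and nerve markers was far higher in pair 194, at 0.79. None of the 7 heat shock chaperone genes was among them.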

How the results depend on the processing

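None of the 7 genes passed the comparison of DMO with CMO animals in limma under any alternative run, and 0 features did in each. When the Cy5 arrays were given the opposite sign, means changed sign for Hspa1a (-0.30), Dnajb1 (-0.33), Hsp90aa1 (-0.059), Cryab (-0.12) and Serpinh1 (0.037). They did so also for Serpinh1 on the Cy3 arrays alone (0.021) and for Hsph1 on the Cy5 arrays alone (0.24). With all 9 arrays and the animal pair as a random replicate block, Hsph1 was at 0.024 (limma adjusted p = 0.997). Leaving out each animal pair in turn gave means from -0.21 to 1.10 for Hspa1a, -0.035 to 0.72 for Dnajb1, -0.53 to 0.28 for Hsph1, -0.089 to 0.56 for Hsp90aa1 and -0.11 to 0.32 for Cryab.

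The test of differences between pairs called 955 features, 5 of the 7 genes and 26 list genes. With the Cy5 sign turned it called 0 features, 0 of the 7 genes and 0 list genes, and none of the 7 in pairs 194, 197, 199 and 220. Without the dye term it called 626 features, and without moderation 14 features, 0 of the 7 genes and 2 list genes. Leaving out each pair gave 0 to 2105 features, 0 to 5 of the 7 genes and 0 to 39 list genes. For single pairs it gave 0 to 1 of the 7 genes (pair 193), 0 to 4 (194), 1 to 3 (197), 1 to 4 (199) and 0 to 5 (220). With arrays scaled to one spread, 2 of the 7 were called for pair 193, 2 for 194, 2 for 199 and 5 for 220. Shares of all features for single pairs were not counted in these runs, so the shifts cannot be read as particular to the chaperones. The causes were not tested. With 1 array for pair 194 and 3 residual degrees of freedom, calls near the threshold are imprecise.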
